A study of Homo sapiens with 34 samples.

Results

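The genes described here are the zinc finger genes of human chromosome 19 whose symbol is ZNF followed by a number. The 3′ UTR table held 229 of them in 567 intervals on chromosome 19, and 9 of the 229 had no read in any library. Of the 229 genes, 146 had a mean level of 1 CPM or more over the libraries (CPM being read counts per 1000000 reads in 3′ UTR intervals) and are described below, out of 11020 genes at that level and 19041 genes in all. The limit fell in a crowded range of levels. ZNF837 at 1.05 CPM, ZNF808 at 1.11 CPM and ZNF439 at 1.22 CPM lay just inside it, and ZNF57 at 0.947 CPM, ZNF649 at 0.919 CPM and ZNF888 at 0.908 CPM lay just outside.

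Most of these genes encode proteins with a long row of C2H2 zinc fingers, which bind DNA, and many also carry a KRAB domain at the other end. The KRAB domain recruits the corepressor TRIM28 (KAP1), which brings in the histone methyltransferase SETDB1 and HP1 proteins, so that the bound DNA, often a transposable element, is packed into heterochromatin. The genes lie in clusters made by tandem duplication. ZNF91 is known for silencing SVA retrotransposons, and ZNF274 for recruiting SETDB1 to the 3′ ends of other ZNF genes.

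The libraries came from hTERT-RPE1, a retinal pigment epithelial cell line immortalised with telomerase, in which cell size was set through cyclin D1 (CCND1) to ask whether mRNA turnover depends on size. The knockdown line (P_TRE shCCND1) carries a doxycycline-inducible shRNA against the CCND1 3′ UTR and makes large cells, and the overexpression line (P_TRE CCND1) carries the same kind of shRNA together with an inducible, shRNA-resistant CCND1 and makes small cells. Both lines were made by lentiviral transduction and kept in 0.5 µg/mL doxycycline. From day 4, cells took up 10 µM 4-thiouridine (s4U), a uridine analog that is read as a T-to-C conversion, for 24 h, and were then chased with 1 mM uridine for 0 to 1440 min, while unlabelled cells received uridine only and were collected with the 0 min cells. The 34 libraries, 17 per line, form 2 time courses per line, of which every course has the unlabelled, 0, 180, 360, 720 and 1440 min samples. No source used here says that the courses came from separate cultures, so p-values measure the spread between these samples, which may be technical.

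Depth ran from 14712332 to 44480703 reads in 3′ UTR intervals per library, so that a count of 0, which allows up to 3 counts, bounds a gene at between 0.0674 and 0.204 CPM. The unlabelled libraries of both first courses and the 720 min library of overexpression course 1 stood apart from the rest, and the counts and pooled half-life that rest on them are also given without them. Of the markers of retinal pigment epithelium, RPE65, BEST1, RLBP1 and TYR had means of 0.105 CPM or less and TTR had no read, while MITF had 57.3 CPM. KRT8, KRT18 and VIM were abundant, at 388, 431 and 7751 CPM. Other markers of the lists used (PMEL, OTX2, CDH1, EPCAM, TJP1, CDH2, FN1 and ACTA2) are not given here. The values shown therefore do not describe each list as a whole. CCND1 was read in its 3′ UTR, which the shRNA targets in both lines, so its level checks neither label: the 2 knockdown courses had 138 and 149 CPM and the 2 overexpression courses 53.3 and 60.3 CPM (log2 fold change 1.35, SE 0.13, adjusted p = 0.000152). In bulk RNA, fewer cells expressing a gene and less RNA per cell cannot be told apart.

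The zinc finger mRNAs were scarce. The median over the 146 genes was 5.10 CPM (interquartile range 2.82 to 10.1), against 28.9 CPM over all genes at 1 CPM or more. Only 37 genes reached 10 CPM, and 39 lay under 3 CPM. All 146 together summed to 1567 CPM, and 125 had a read in every library, while the other 21 were at 0 in some libraries but none in more than 3. Between 119 and 142 of the genes were at 1 CPM or more in a single library.

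**Figure D1:**
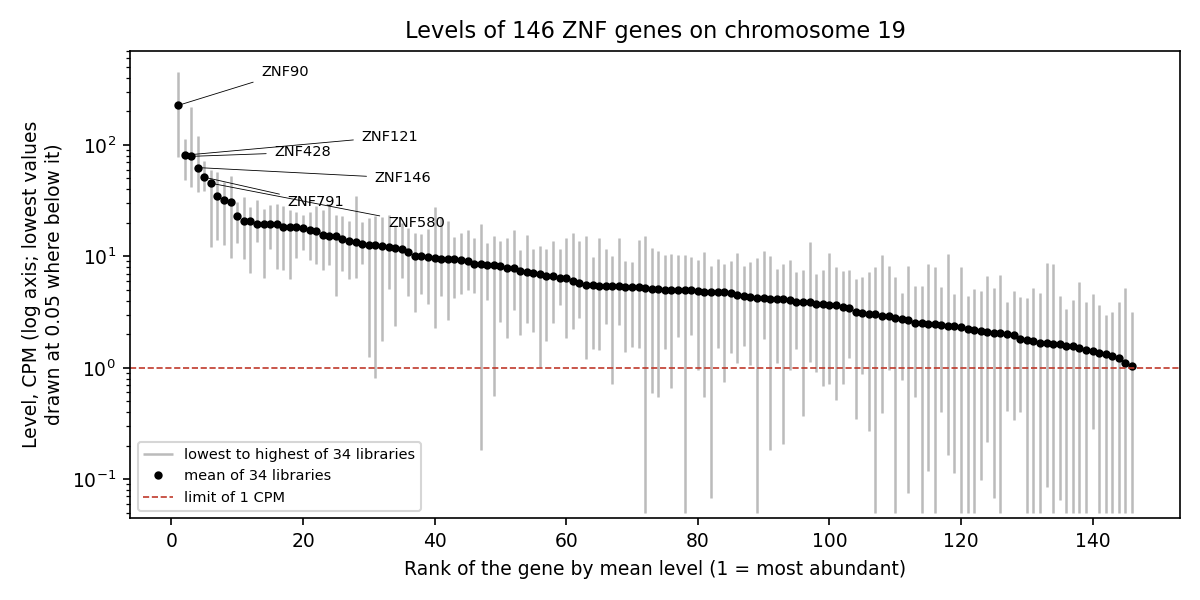
Level in CPM (log axis) of the 146 ZNF genes of chromosome 19, ranked by mean. Points are means over 34 libraries, lines run from the lowest to the highest library, and the dashed line marks the limit of 1 CPM. ZNF90 stands alone at 226 CPM, and the spread over libraries widens toward the scarce genes.

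The 10 most abundant were ZNF90 (226 CPM), ZNF121 (80.8 CPM), ZNF428 (78.9 CPM), ZNF146 (62.6 CPM), ZNF791 (51.3 CPM), ZNF580 (45.3 CPM), ZNF562 (34.8 CPM), ZNF787 (32.0 CPM), ZNF358 (30.8 CPM) and ZNF576 (23.0 CPM). ZNF121 varied little between courses, with 88.3 and 81.6 CPM in the knockdown courses and 82.6 and 81.1 CPM in the overexpression courses. Its single libraries ran from 48.4 to 112 CPM in the knockdown line and from 55.9 to 100 CPM in the overexpression line. ZNF428 ran from 48.7 to 139 CPM over the knockdown libraries and from 41.5 to 218 CPM over the overexpression libraries, so the libraries of the lines overlapped throughout. ZNF121 and ZNF428 are next to each other in the order of mean levels and did not differ beyond that spread. The ZNF580 interval also overlaps ZNF581 and CCDC106 on the same strand, and its reads cannot be divided among them. In all, the main interval of 27 of the 146 genes overlaps another gene on the same strand. Multimapped reads exceeded 10% in 4 genes, ZNF302 (16.7%), ZNF382 (14.7%), ZNF383 (11.2%) and ZNF615 (11.3%), where near-identical relatives may share reads.

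The reads listed under ZNF90 did not lie in the RefSeq ZNF90 gene. That gene spans chr19:20078000-20121168 (RefSeq, GRCh38.p14), whereas every read listed under ZNF90 lay in the interval chr19:20125006-20126166 (hg38, plus strand), which overlaps the pseudogene RPS16P10 at chr19:20124990-20125550. RPS16 encodes a protein of the small ribosomal subunit. Aligned to the RPS16-201 transcript, the interval matched it at 515 of 543 aligned positions (94.8%), with 28 differences. The alignment covered chr19:20125006-20125550, and the rest of the interval lay outside it. The window that held the most differences and the window at the end of the alignment are shown because they let a reader see how alike the sequences are. Capitals mark the bases that differ.
ZNF90 interval, chr19:20125168-20125197: CtgagccgcgcaTgctacaAtacGagctgc
RPS16-201, bases 179 to 208: TtgagccgcgcaCgctacaGtacAagctgc
ZNF90 interval, chr19:20125521-20125550: acagtttttgagggattttaaagtttcCag
RPS16-201, bases 530 to 559: acagtttttgagggattttaaagtttcAag
Counted from the first base of RPS16-201, with the transcript's base first, the differences in the first pair are T179C, C191T, G198A and A202G, and the difference in the second pair is A557C.

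Of the reads listed under ZNF90, 6.77% were multimapped. ZNF90 had 156 and 226 CPM in the knockdown courses and 210 and 265 CPM in the overexpression courses, and RPS16 itself had 1357 and 1784 CPM and 1809 and 2275 CPM in the same courses. Knockdown course 1 was the lowest and overexpression course 2 the highest for both. Because the interval may not report ZNF90, its 14.4% share of the summed level was left out of the pooled values below, which then sum to 1341 CPM. The next 9 genes made up 32.8% of that remainder. Without ZNF90 the summed level was 1330 and 1301 CPM in the knockdown courses and 1379 and 1340 CPM in the overexpression courses, and it stayed between 1200 and 1504 CPM over all 34 libraries.

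The 146 genes fell into 15 groups by position, each made of neighbours whose starts lie within 1 Mb. The group nearest the end of the long arm (chr19:55484374-58481230) was the largest, with 45 genes from ZNF628 to ZNF446, a summed level of 408 CPM and ZNF580 as its most abundant gene. The next groups by size held 22 genes (ZNF175 to ZNF331), 16 genes (ZNF575 to ZNF180) and 14 genes (ZNF565 to ZNF573), with medians of 4.16, 4.67 and 4.84 CPM. These medians lie close to that of all 146 genes, and the 45-gene group had a median of 7.11 CPM.

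The 3′ UTR intervals of these genes were longer and lower in GC content than those of their neighbours. Their median length was 2022 bases and their median GC content 40.0%, against 723 bases and 56.5% for the 591 other genes of chromosome 19 and 1820 bases and 41.9% for 177 ZNF genes on other chromosomes. Over all 11020 genes the medians were 1421 bases and 42.1%, with quartiles of GC content at 35.6% and 51.6%, so the GC content was near that of all genes. The count of T in the table equalled that of hg38 in all 145 intervals compared, ZNF90 left out. The AU-rich pentamer ATTTA, a motif known from short-lived mRNAs, occurred a median of 4 times per interval, or 1.94 times per kb, against 1.72 per kb over all genes. The longer nonamer TTATTTATT was found on the transcribed strand in 19 of the 145 intervals (13.1%), against 10.2% for ZNF genes elsewhere, 7.11% for other genes of chromosome 19 and 9.75% of all genes. It contains ATTTA, so the matches overlap. The windows below, from hg38, belong to members whose levels or label are described further on, with the nonamer in capitals.
ZNF562, chr19:9643348-9643377, minus strand: ttttctaaacTTATTTATTtatgaatgaca
ZNF714, chr19:21122093-21122122, plus strand: ataagtatatTTATTTATTgagtcaatttg
ZNF100, chr19:21723820-21723849, minus strand: ataagtaaatTTATTTATTgagtcaatttg
ZNF507, chr19:32385859-32385888, plus strand: gaataacatgTTATTTATTggtattgactt
The ZNF100 window, shown beside that of ZNF714 for its likeness to it, comes from another gene of the same position group.

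An ETS motif was common in the promoters of these genes. RefSeq promoters (GRCh38.p14, 250 bases before to 50 bases after the start) were matched for 133 of the genes. The ETS factor motif CCGGAAG, searched on both strands, was present in 60 of the 133 (45.1%), in 39.3% of promoters of ZNF genes elsewhere, in 20.0% for other genes of chromosome 19, in 20.5% for genes at 1 CPM or more and in 10.7% of all 27305 promoters. It occurred once in 52 promoters and more often in 8, at a median offset of -18 bases from the start. The CCAAT box was present in 49.6% of these promoters against 37.2% for genes at 1 CPM or more, and the GC box GGGCGG in 66.9% against 71.5%. The windows below show the motif in genes whose mRNA level or label is described further on, and in a pair of relatives, with the motif, or its reverse complement CTTCCGG, in capitals.
ZNF419, chr19:57487722-57487751, plus strand: aatgggcgggaCTTCCGGcgtctcgtttgg
ZNF226, chr19:44165003-44165032, plus strand: agttgtaggcaCTTCCGGctcgaggaaggc
ZNF551, chr19:57681970-57681999, plus strand: acgggccggaaCTTCCGGcgtcctcctcgt
ZNF557, chr19:7069670-7069699, plus strand: ctagccggagaCCGGAAGcggaagcgcgct
ZNF611, chr19:52735022-52735051, minus strand: ttaacgcaaacCCGGAAGcggatcgggtgg
ZNF808, chr19:52527661-52527690, plus strand: ttaacgcaaacCCGGAAGcggatcgggtgg
The ZNF611 and ZNF808 windows are identical over their 30 bases, so promoters of related genes are not independent observations. A match describes letters only, and binding was not measured.

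Few of the zinc finger genes differed between the large and the small cells. By edgeR's quasi-likelihood test with Benjamini-Hochberg adjustment on counts summed per course, 8 of the 146 genes passed, 3 higher and 5 lower in the knockdown line, which is 5.48% of them, against 21.9% of the 13165 genes tested (11.2% higher and 10.7% lower). At an unadjusted p under 0.05 there were 22 of the genes (15.1%), against 34.8% of all genes. Over the 146 genes the median log2 fold change was -0.028, against -0.0077 for all genes tested. ZNF genes on other chromosomes had 21 calls among 177 (11.9%) with a median of -0.18, and other genes of chromosome 19 had 134 among 591 (22.7%) with a median of -0.041.

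The share of calls varied with the level. Of 39 ZNF genes at 1 to 3 CPM, 1 passed (2.56%), against 14.5% of all genes at that level, and of 70 at 3 to 10 CPM none passed, against 23.1% of all genes. At 10 to 30 CPM, 6 of 28 passed (21.4%), close to the 24.6% of all genes. From 30 to below 1000 CPM 1 of 9 passed (11.1%), against 28.5% of all genes in that range. In the 3 to 10 CPM range the median standard error was 0.25 on the log2 scale for the ZNF genes and 0.23 for all genes, and the median size of the log2 difference was 0.26 against 0.39. The level and the standard error are given as descriptions, and their part in the count was not tested. In 72 of the 146 genes (49.3%) the courses of the lines did not overlap, against 60.7% of all genes tested, with the knockdown courses above in 32 (29.9% of all genes) and below in 40 (30.9%).

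**Figure D2:**
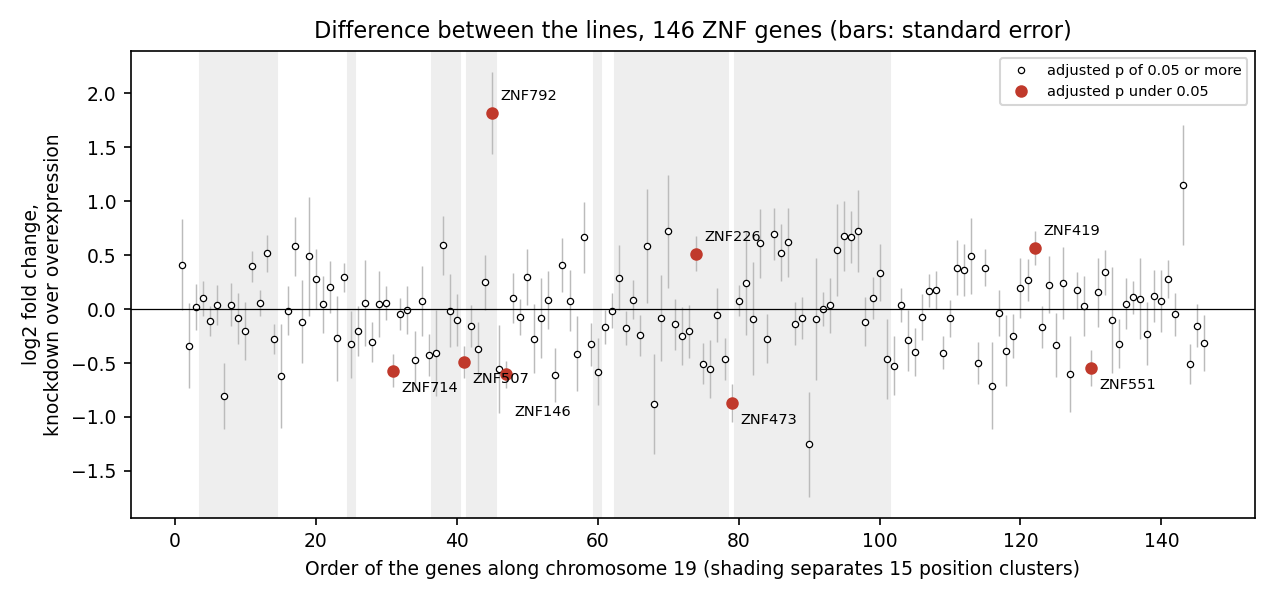
Log2 fold change of knockdown over overexpression for the 146 genes in their order along chromosome 19, with bars of 1 standard error and shading that separates the 15 position groups. Filled points mark the 8 genes with an adjusted p under 0.05, which lie in 7 groups, and the rest scatter on both sides of 0.

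ZNF792 was the gene with the largest difference among those called. The 2 knockdown courses had 3.64 and 3.73 CPM and the 2 overexpression courses 0.754 and 1.34 CPM, so the lines did not overlap. It was 3.52-fold higher in the knockdown line (log2 1.82, SE 0.38, adjusted p = 0.00759), although single libraries ran from 0 to 8.02 CPM in the knockdown line and from 0 to 3.30 CPM in the overexpression line. ZNF419 had 15.1 and 15.3 CPM in the knockdown courses and 10.1 and 10.5 CPM in the overexpression courses (log2 0.57, SE 0.16, adjusted p = 0.0298). ZNF226 had 18.1 and 20.6 CPM against 14.8 and 12.5 CPM (log2 0.51, SE 0.16, adjusted p = 0.0472). In each of the 3 genes both knockdown courses lay above both overexpression courses.

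Among the genes that were lower in the knockdown line, ZNF473 encodes a protein of the U7 snRNP machinery that processes the 3′ ends of replication-dependent histone mRNAs. It had 8.08 and 9.83 CPM in the knockdown courses and 16.0 and 16.9 CPM in the overexpression courses, 1.83-fold lower (log2 -0.87, SE 0.18, adjusted p = 0.00631). ZNF146, whose protein consists almost only of zinc fingers, had 51.3 and 50.02 CPM against 76.2 and 78.5 CPM (log2 -0.61, SE 0.12, adjusted p = 0.00711). The courses of the lines were well apart in both genes. ZNF714 had 13.9 and 15.4 CPM against 22.3 and 21.5 CPM (log2 -0.57, SE 0.15, adjusted p = 0.0222). ZNF551 had 9.26 and 9.38 CPM against 13.7 and 13.7 CPM (log2 -0.55, SE 0.16, adjusted p = 0.0379), and ZNF507 had 17.1 and 15.7 CPM against 23.4 and 22.8 CPM (log2 -0.49, SE 0.14, adjusted p = 0.0349). The reads of ZNF419 and ZNF551 lie in intervals that also overlap another annotated gene on the same strand.

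ZNF792, ZNF473 and ZNF146 passed the test with any 1 of the 4 courses left out, with adjusted p-values of at most 0.0371. Each of the other 5 called genes lost its call without at least 1 course. Without the unlabelled and 720 min libraries, which include those that stood apart, 18 of the 146 genes passed, 7 higher and 11 lower, against 30.9% of all genes.

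**Figure D3:**
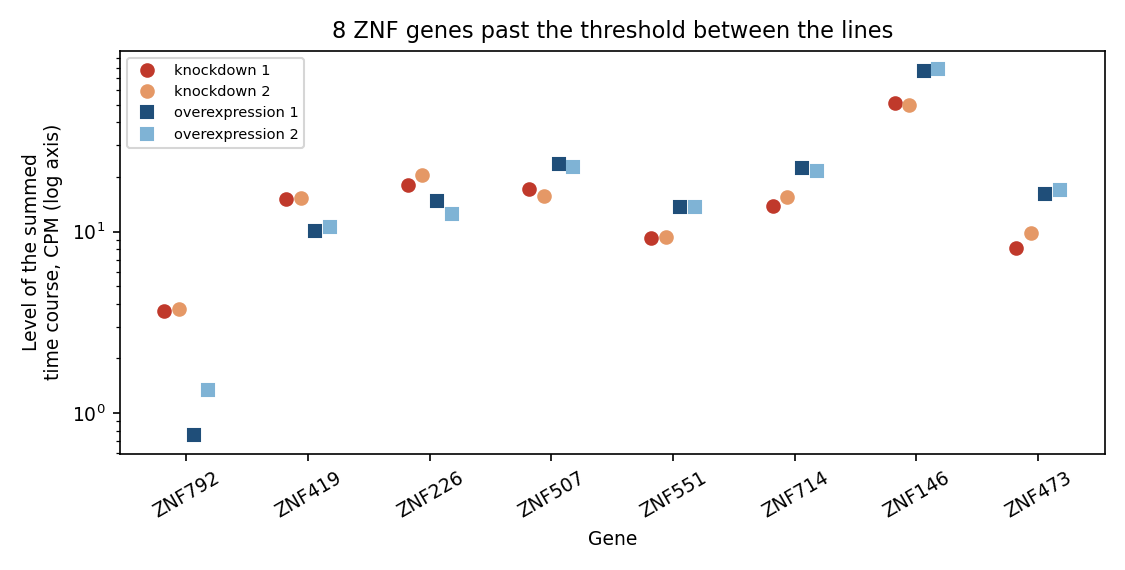
Level in CPM (log axis) of the 8 called genes in each summed time course, circles for the knockdown line and squares for the overexpression line. In every gene shown both knockdown courses lie on the same side of both overexpression courses, with the widest gap in ZNF792.

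Differences of both signs were found within the position groups. The 45-gene group had a median log2 fold change of 0.031, with 23 genes above 0 and 22 below, and 2 called genes of opposite sign, ZNF419 and ZNF551. The 22-gene group had a median of 0.088 and no call, and the 16-gene group a median of -0.16 with 5 genes above 0 and 11 below.

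Genes that act with KRAB zinc finger proteins were measured beside them, from a list of 30 corepressor and heterochromatin genes, all of which were tested. In the knockdown line 9 of the 30 were lower and none higher, against 10.7% of all genes tested that were lower, and their median log2 fold change was -0.29. UHRF1, which guides maintenance DNA methylation, had 76.1 and 65.3 CPM in the knockdown courses and 189 and 170 CPM in the overexpression courses (log2 -1.34, SE 0.13, adjusted p = 0.000134). DNMT1, the maintenance DNA methyltransferase, had 198 and 212 CPM against 404 and 388 CPM (log2 -0.94, SE 0.12, adjusted p = 0.000531). TRIM28, the corepressor itself, had 189 and 167 CPM against 237 and 258 CPM (log2 -0.47, SE 0.12, adjusted p = 0.0217). SUV39H1, a histone H3 lysine 9 methyltransferase, was lower by a log2 value of -1.005, TRIM24 by -0.89 and the histone chaperone RBBP4 by -0.71, with adjusted p-values of 0.00858, 0.00306 and 0.00250. SETDB1 had 17.7 and 17.8 CPM against 17.3 and 21.2 CPM (log2 -0.11, SE 0.16, adjusted p = 0.672). With 1 course left out, 5 to 9 of the 30 were lower, and 12 were lower without the unlabelled libraries and 13 without the unlabelled and 720 min libraries. No gene of the list passed in any of the other comparisons.

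Labelling with s4U was not followed by a detectable change in these mRNAs. At 0 min against unlabelled, 0 of the 146 genes passed edgeR's test, nor did any of the 11826 genes tested (0%), and 3 of the 146 had an unadjusted p under 0.05 (3.4% of all genes did), while DESeq2 also called 0 of the 146. In the second courses alone, whose unlabelled libraries did not stand apart, 0 of the 146 passed and 6 had an unadjusted p under 0.05, against 0.720% of all genes that passed. The 3 with the smallest p were ZNF225 (log2 1.76, SE 0.74), ZNF625 (log2 1.14, SE 0.49) and ZNF738 (log2 -1.25, SE 0.57), each with an adjusted p of 0.887. The median standard error over the 146 genes was 0.57. Even these 3 changes did not pass, so changes of their size or smaller could have gone undetected.

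With 1 exception, no change in level was detected in the zinc finger mRNAs during the chase, which matters because a half-life read from loss of label assumes a steady level. Against 0 min, 0 of the 146 genes passed at 180 min (0.229% of all genes did), 0 at 360 min (0.335%), 1 lower at 720 min (1.5% in either direction and 0.613% lower) and 0 at 1440 min (1.07%). At an unadjusted p under 0.05 there were 4, 6, 15 and 6 of the genes, or 2.74%, 4.11%, 10.3% and 4.11% of them, against 3.66%, 6.82%, 16.1% and 11.3% of all genes. DESeq2 called 0, 0, 2 and 1 of the genes, against 0.349%, 0.973%, 3.97% and 2.65% of all genes. The median log2 changes over the genes were -0.014, -0.082, -0.13 and -0.065, with median standard errors of 0.41.

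The gene that fell at 720 min was ZNF557, a KRAB zinc finger gene. Its 4 libraries at 0 min had 21.2, 19.4, 14.7 and 19.6 CPM in knockdown courses 1 and 2 and overexpression courses 1 and 2, and those at 720 min had 13.1, 8.47, 6.29 and 13.3 CPM. Every library at 720 min lay below every library at 0 min. It fell by 0.90 on the log2 scale (SE 0.22, edgeR adjusted p = 0.0404). Without the 720 min library of overexpression course 1 the log2 change was -0.73 with an adjusted p of 0.0636, and the call was also lost with any single course left out (adjusted p from 0.0545 to 0.286). At 1440 min ZNF557 had 18.4, 19.02, 14.3 and 17.3 CPM, and the difference from 720 min was not tested.

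The genes with the smallest p at the other times did not pass. At 180 min these were ZNF587 (log2 0.63, SE 0.24), ZNF439 (log2 1.95, SE 0.90) and ZNF136 (log2 -0.76, SE 0.36). At 360 min they were ZNF417 (log2 1.68, SE 0.52), ZNF546 (log2 -1.39, SE 0.49) and ZNF606 (log2 -0.997, SE 0.36). At 1440 min they were ZNF548 (log2 -1.09, SE 0.34), ZNF468 (log2 -1.70, SE 0.58) and ZNF136 (log2 -0.99, SE 0.37), of which DESeq2 called ZNF136 (adjusted p = 0.0476). The change from 0 to 1440 min did not differ between the lines in any of the 146 genes by the interaction test in edgeR (0 of 12869 genes, 0%), and 2 had an unadjusted p under 0.05 (2.77% of all genes did). DESeq2 called 0 of the 146.

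Label was lost from the zinc finger mRNAs faster than from the transcriptome as a whole. T-to-C conversions were pooled over 143 of the genes, without ZNF90 and without intervals holding over 10% multimapped reads, the rate of the unlabelled library was subtracted, and a single exponential was fitted per course. The pooled half-life was 2.85 and 3.72 h in the knockdown courses and 2.93 and 3.33 h in the overexpression courses, 3.21 ± 0.40 h (SD, n = 4 courses). Over all 10793 genes pooled in the same way it was 7.10 and 7.26 h and 6.18 and 6.01 h. Each course thus gave the zinc finger mRNAs a lower value than all genes, at 0.401 to 0.554 of it, and the 4 values of the former lay wholly below the 4 of the latter. The mean was 3.43 h with no unlabelled rate subtracted and 3.21 h without the 720 min library of overexpression course 1. No p is given for the difference from all genes, since the genes were chosen as a list.

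At 360 min of chase the zinc finger mRNAs held 23.5% and 29.5% of their 0 min label in the knockdown courses and 19.1% and 13.4% in the overexpression courses, against 54.9%, 57.2%, 53.5% and 47.9% for all genes. ZNF genes on other chromosomes were close to them, with half-lives of 3.25 and 3.48 h and 3.19 and 3.18 h. Other genes of chromosome 19, the neighbours of these genes, had 9.14 and 9.36 h and 7.505 and 7.63 h. Pooling weights genes by their covered T, so abundant mRNAs count most. Gene by gene, on the chase times shared by all courses, the medians over 246 neighbours were lower, at 5.04 and 5.03 h and 5.02 and 4.47 h. The sampled times differ between courses, and on the 5 labelled times that all courses share the half-lives of the zinc finger mRNAs were 3.05 and 3.16 h and 2.77 and 2.78 h. The early times were noisy in the pooled sum, with 63.5% left at 20 min in overexpression course 1 and 121% at 10 min in overexpression course 2.

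**Figure D4:**
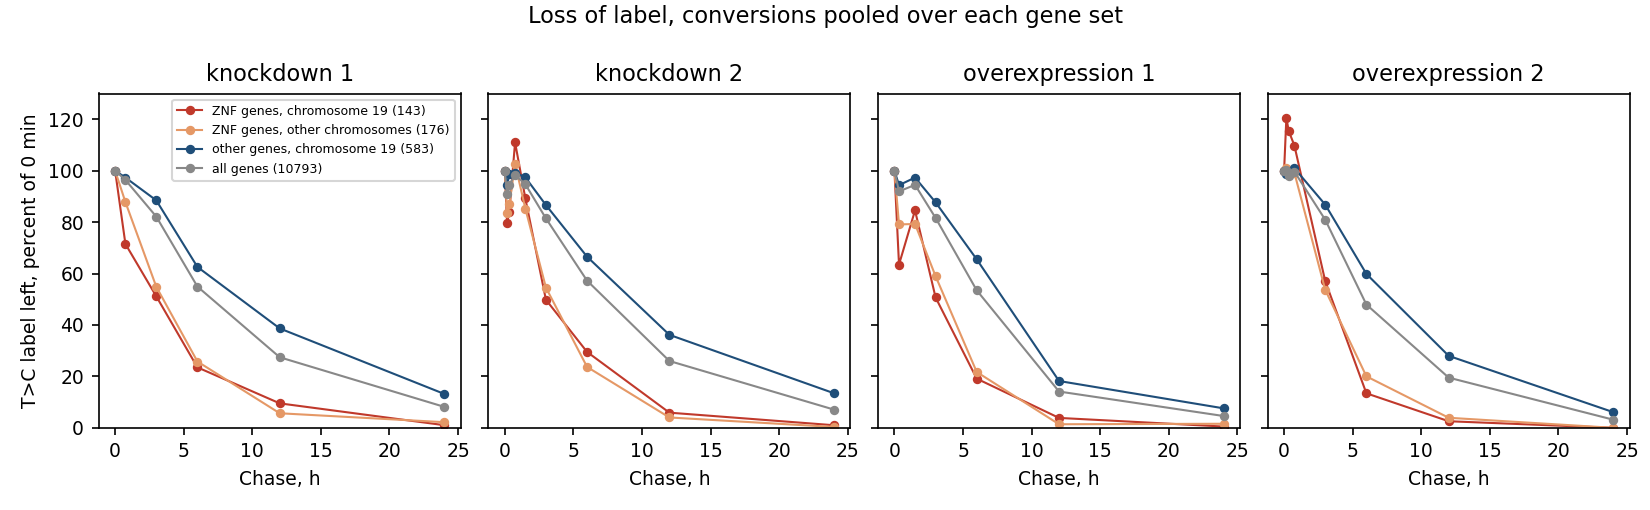
Percent of the 0 min T-to-C label left against chase time in h, a panel per time course, with conversions pooled over each gene set (number of genes in brackets). In every panel both ZNF sets run below all genes and the other genes of chromosome 19 from 180 min on.

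Not all members lost label quickly. ZNF580 had fitted half-lives of 9.76 and 10.5 h in the knockdown courses and 9.11 and 6.65 h in the overexpression courses, with R2 of the fits from 0.370 to 0.858. ZNF428 had 11.4 and 21.6 h and 11.2 and 8.003 h, with R2 from 0.488 to 0.735. ZNF121, as abundant as ZNF428, had 2.02 and 4.30 h and 3.28 and 2.69 h. The sequences under ZNF90 gave 43.8 and 36.6 h and 22.1 and 18.3 h, with R2 from 0.332 to 0.786. RPS16 had 44.6 and 24.0 h and 17.4 and 22.6 h, with R2 from 0.740 to 0.889. The ZNF90 values lay in the range of those of RPS16. They lay above the pooled value of the other zinc finger mRNAs in every course. The ZNF90 fit in knockdown course 1 had the R2 of 0.332, below the study's limit of 0.6. The values of 36.6, 43.8 and 44.6 h exceed the longest chase time, so they are extrapolated and cannot set a close match. With the 10 most abundant genes left out the mean pooled half-life was 2.61 h, and with ZNF90 kept in it was 3.96 h.

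Pooled half-lives of the position groups with at least 10 members varied between courses, whose sampled times differ. The 16-gene group that holds ZNF428 had 9.62 and 8.93 h in the knockdown courses and 4.89 and 4.97 h in the overexpression courses, and without ZNF428 6.09 and 5.30 h and 2.32 and 3.74 h. The 45-gene group had 1.99 and 3.74 h and 2.75 and 3.30 h. The 11-gene group around ZNF121 had 2.25 and 3.56 h and 2.72 and 2.74 h, and the 14-gene group that holds ZNF146 had 2.63 and 4.11 h and 3.23 and 2.79 h. The 22-gene group had 3.78 and 1.21 h and 2.87 and 3.98 h, and the 10-gene group that holds ZNF791 had 3.003 and 2.68 h and 0.952 and 2.34 h. The group that holds ZNF714, with 10 genes pooled, ran from 0.399 h in knockdown course 1 to 5.25 h in knockdown course 2, with 4.12 and 4.01 h in the overexpression courses and R2 from 0.374 to 0.795. On the 5 shared times the ZNF714 group had 2.52 and 1.77 h and 4.00 and 3.07 h, with R2 of at least 0.941. The ZNF791 group then had 1.91 h in overexpression course 1. The 22-gene group still ran from 1.19 h in knockdown course 2 to 3.87 h in knockdown course 1.

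Few single genes gave a half-life. With the study's limits (1 CPM, at least 4 times and R2 of at least 0.6), 51 and 22 of the 146 genes had a half-life in the knockdown courses and 40 and 39 in the overexpression courses, 61 had none in any course, and 6 had a value in all 4. Fits with an R2 below the limit numbered 32 and 71 in the knockdown courses and 42 and 64 in the overexpression courses. The median level rose with the number of courses that gave a value, from 3.08 CPM with none to 41.7 CPM with all 4. These 6 were ZNF557 (2.09 ± 0.68 h), ZNF791 (2.33 ± 0.65 h), ZNF574 (2.54 ± 1.26 h), ZNF121 (3.07 ± 0.97 h), ZNF787 (3.15 ± 1.57 h) and ZNF146 (3.54 ± 0.61 h), each a mean ± SD over 4 courses. Every ZNF146 value lay above every ZNF557 value, while the values of all other pairs overlapped. Differences between the genes were not tested. All 6 means lie below the 4.44 to 5.36 h of the course medians over the 3314 genes that gave a value in every course.

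ZNF146 had 3.43 and 4.12 h in the knockdown courses and 3.89 and 2.72 h in the overexpression courses, and the lines overlapped (log2 0.21, SE 0.33, limma adjusted p = 0.859). ZNF557 had 2.48 and 2.40 h against 2.41 and 1.07 h (log2 0.60, SE 0.43, adjusted p = 0.700), and ZNF787 had 1.01 and 4.66 h against 3.86 and 3.05 h (log2 -0.66, SE 0.68, adjusted p = 0.786). By limma 0 of the 6 genes and 0 of the 3314 genes (0%) differed between the lines, and 0 of the 6 had an unadjusted p under 0.05, against 7.72% of all genes.

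On the 5 shared times 24 of the genes gave a value in every course, with medians of 2.67 and 2.61 h in the knockdown courses and 2.20 and 2.15 h in the overexpression courses, against 4.51, 4.55, 4.34 and 4.00 h over 5615 genes. By limma 0 of these 24 and 0 of the 5615 genes differed between the lines. An unadjusted p under 0.05 was found in 6 of the 24, and the matching share of all genes is not given. ZNF580 was the longest at 8.38 ± 1.84 h, followed by ZNF444 at 5.56 ± 2.40 h, ZNF83 at 4.87 ± 2.42 h and ZNF579 at 4.48 ± 2.27 h. The latter 3 do not differ beyond their spread. The shortest fitted values lie far below the first shared chase time of 180 min, which cannot resolve them.

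**Figure D5:**
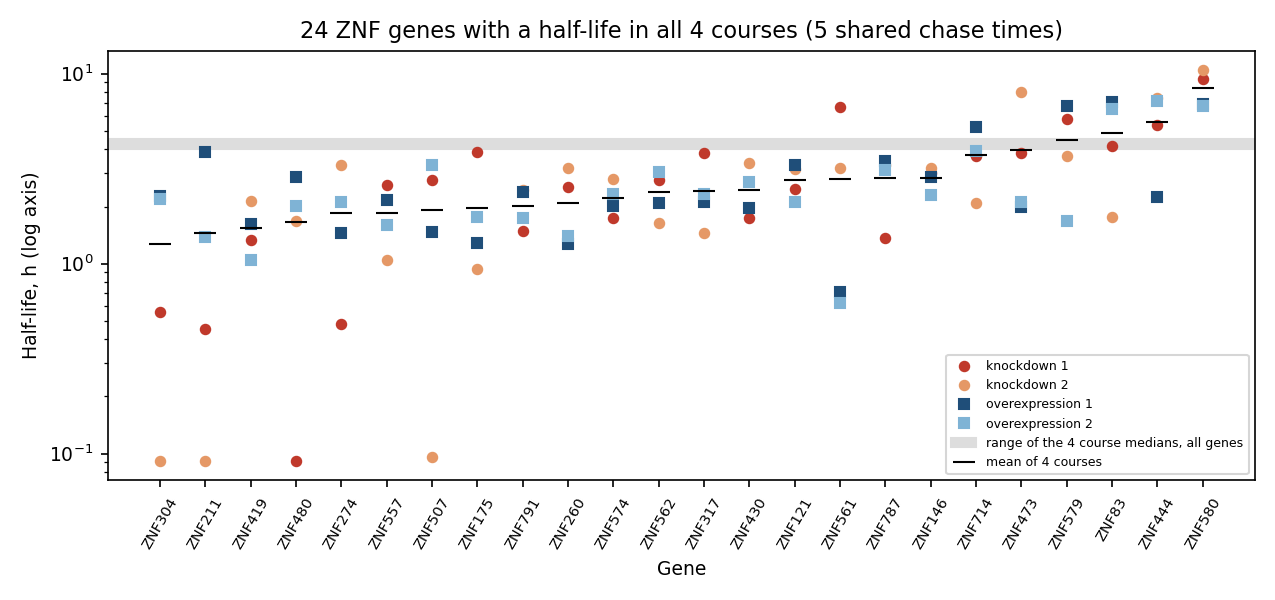
Half-life in h (log axis) of the 24 ZNF genes with a value in every course on the 5 shared chase times, ordered by mean, with circles for knockdown and squares for overexpression courses and a dash for the mean. The grey band spans the 4 course medians over all 5615 genes, from 4.00 to 4.55 h, 20 of the 24 means lie below it, ZNF579 lies inside it, and ZNF83, ZNF444 and ZNF580 lie above it.

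The zinc finger mRNAs also held less label at the end of the pulse. Pooled over the 143 genes, 0.554% and 0.553% of covered T were converted at 0 min in the knockdown courses and 0.593% and 0.560% in the overexpression courses, after subtraction of the unlabelled rate. Over all genes it was 0.891%, 0.841%, 0.957% and 0.923%, and over ZNF genes on other chromosomes 0.764%, 0.762%, 0.823% and 0.852%. The zinc finger genes of chromosome 19 were thus the lowest in every course. The unlabelled libraries had 0.0150% to 0.0313% for the same 143 genes.

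Of 69 genes with a label content above 0 in all 4 courses, 55 had a mean below 0.847%, the median of all genes. The means ran from 0.200% in ZNF134 to 1.15% in ZNF628. The mean of ZNF628 rests on 3.81% in overexpression course 2, against 0.169% in overexpression course 1 and 0.112% and 0.520% in the knockdown courses. Counting error alone was sizeable in single genes. ZNF146 had conversion rates of 0.856% and 0.960% in the knockdown courses and 0.867% and 1.06% in the overexpression courses, so the lines overlapped. The 95% Wilson interval of the first value (400 of 46708 covered T) ran from 0.777% to 0.944%. ZNF562, which holds a nonamer, had 0.433% in knockdown course 1 (interval 0.356% to 0.527%). These intervals cover counting error only, since the reads carry no molecular identifiers.

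Between the lines, 0 of 70 genes tested for label content at 0 min passed (0 of 8865, 0%, by limma), and 8 of the 70 had an unadjusted p under 0.05, against 6.13% of all genes. The 3 with the smallest p were ZNF776, ZNF317 and ZNF83. ZNF776 had conversion rates of 0.242% and 0.496% in the knockdown courses and 1.27% and 2.04% in the overexpression courses (log2 -2.22, adjusted p = 0.740). ZNF83 had 1.30% and 1.27% against 0.610% and 0.649% (log2 1.12, SE 0.22), and ZNF317 had 0.268% and 0.440% against 1.07% and 1.01% (log2 -1.61, SE 0.32), with the same adjusted p of 0.740. The 3 genes were chosen for their small p, so the gap between the courses of the lines adds nothing to the test.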

How the data were processed

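Per the labels and the study's methods, RNA (75 ng) went into QuantSeq 3′ libraries, and the authors mapped and counted them with SLAMdunk 0.4.3 on hg38, with no release of the 3′ UTR annotation stated in the text read here. The deposited tables give, per interval and library, read counts, covered T and T-to-C conversion counts, CPM (relative to mapped reads) and conversion rates as a fraction. The deposited CPM was used only as an alternative. Here counts were summed per gene, and CPM is per 1000000 reads in 3′ UTR intervals, which held 61.5% to 75.5% of mapped reads. Interval names that repeat 1 symbol were read as that gene; intervals naming several genes (2.28% to 2.74% of interval reads) were left out of the gene sums.

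Abundance was tested with edgeR 4.0.16 (quasi-likelihood, TMM, filterByExpr; R 4.3.3) with Benjamini-Hochberg adjustment over all genes and a threshold of 0.05, on courses summed over their 6 shared samples for the line and on single libraries otherwise. Half-lives followed the study's methods: conversions over covered T, minus the unlabelled library, relative to 0 min, least-squares fit of a single exponential with a rate between 0.001 and 10 per h. Log2 half-lives and label contents were tested with limma 3.58.1. DESeq2 1.42.0 was an alternative. The code was tested on simulated data. Named genes were the 10 most abundant, those past a threshold (or the 3 smallest p), those with a half-life in all 4 courses, those next to the 1 CPM limit, and up to 6 called corepressors; SETDB1, ZNF428 and ZNF580 half-lives, the shared-time half-lives and the sequence windows were chosen after values were seen. The genes and lists were chosen with earlier results of these data known. A table of protein sequences was not used here.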

Additional observations from a re-analysis of the deposited data

Results flagged for a closer look

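Of the 3 genes with the smallest p in the test of whether the change from 0 to 1440 min differed between the lines, 2 went one way in both knockdown courses and the other way in both overexpression courses. Of all 146 genes 12 had that pattern (8.22%), against 9.78% of the 12869 genes tested. ZNF222 went from 3.34 to 1.89 CPM and from 2.09 to 1.11 CPM in the knockdown courses and from 0.374 to 2.16 CPM and from 0.509 to 1.43 CPM in the overexpression courses, a difference of the log2 changes of -2.87 (SE 1.22). ZNF17 went from 5.03 to 1.39 CPM and from 3.66 to 2.59 CPM in the knockdown courses and from 3.48 to 4.85 CPM and from 1.90 to 5.21 CPM in the overexpression courses, a difference of -2.02 (SE 0.90). Neither passed edgeR's interaction test (adjusted p = 0.999998 for both).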

How the results depend on the processing

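The number of genes at 1 CPM or more ran from 138 to 149 under the other settings, except that it was 38 where interval names that repeat a symbol were left out. For the difference between the lines, the share of all genes tested that passed stands in brackets. The 8 calls among the 146 genes (21.9%) became 25 with a replicate block (39.9%). They became 14 without the unlabelled libraries (28.4%) and 18 without the unlabelled and 720 min libraries (30.9%). With the 34 libraries as samples there were 23 (39.6%). The 0 min libraries alone gave 2 (15.8%) and the unlabelled libraries alone 0 (0.0344%). DESeq2 gave 12 (26.9%) and no filter 11 (21.8%). With 1 course left out, 1 line keeps 1 course, so no count of these calls is given. Samples with the same course number did not deviate together throughout (r from -0.024 to 0.34 within courses, 0.055 between the lines, over genes), so the numbers were not taken as pairs. The block changed no call in the other comparisons. At 720 min of chase, 1 call (1.5% of all genes) became 2 with DESeq2 (3.97%) and 3 without a filter (3.60%). It became 0 without the 720 min library of overexpression course 1 (2.05%) and 0 to 1 with 1 course left out (0.0818% to 1.80%). At 1440 min DESeq2 gave 1 (2.65%). The mean pooled half-life of 3.21 h moved to 3.96 h with ZNF90 and to 2.61 h without the 10 most abundant genes, and lay between 2.94 and 3.43 h under the other settings. Directions turned in 4 values that passed no test: ZNF738 with s4U (0.11 in the second courses alone), and the log2 half-life differences of ZNF557 (-0.17 on shared times), ZNF787 (-1.76 to 0.44 with 1 course left out) and ZNF146 (-0.049 to 0.46). The cause of these changes was not tested. The settings on unlabelled libraries alone, second courses alone, the 720 min library of overexpression course 1 (for the chase and pooled values), repeated names and the pooled half-life were chosen after seeing the data. Of the 146 genes, 109 lie below 10 CPM.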
